A study of Mus musculus with 16 samples.

Results

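The amino acid transporter genes of the colonic epithelium were compared between cells labelled through an Atoh1-driven reporter (tdTom+) and unlabelled epithelial cells (tdTom-) of the same animals. The members were the genes whose mouse symbol begins with Slc1a, Slc3a, Slc6a, Slc7a, Slc36a, Slc38a or Slc43a followed by a digit. Of 45513 genes in the count tables, 67 had such a symbol and 63 were members. The 4 left out were the opposite-strand and antisense genes Slc7a6os, Slc36a3os, Slc36a1os and Slc6a19os. Every mouse carried Atoh1(WT)CreERT2, in which the tamoxifen-inducible Cre is made from the Atoh1 locus, and one copy of the Rosa26 tdTom reporter, on a C57BL/6 background. The paper's methods describe the mice of the study as a whole as males and females aged 8 to 16 weeks, and the Atoh1 lines as homozygous. All 8 received tamoxifen, 1 mg a day on 3 days by the labels and by the methods for the secretory signature, which these libraries define. By the paper's methods the tissue was fractionated, the first fraction was discarded and the fractions rich in crypts were pooled. Live EpCAM+ cells of these pools from each colon were sorted into tdTom+ and tdTom- cells. Each mouse thus gave 2 libraries and each population held 8, paired by the mouse number in the sample titles. The reporter is permanent, so tdTom+ marks cells that express Atoh1 and their progeny, and neither population is a single cell type. No untreated animal and no sample of the small intestine was analysed here.

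Amino acids cross the epithelium by carriers that differ in substrate, coupling and membrane. Apical carriers take amino acids up from the lumen, basolateral exchangers pass them to and from the blood, and a few carriers sit in lysosomes, where they also report amino acid supply to the growth kinase mTORC1. Most Slc7 carriers are light chains that reach the membrane only with a heavy chain, Slc3a1 at the apical or Slc3a2 at the basolateral side. Goblet cells, the main Atoh1-dependent cells of the colon, make large amounts of mucin, whereas the colonocytes that line the surface absorb.

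Total counts per library were 16482530 to 24218367 in tdTom+ and 18318172 to 45791503 in tdTom- cells, where mouse 4 gave the largest library. The labels were checked with Atoh1 (log2 fold change 4.56, standard error 0.116, adjusted p = 1.42e-15, edgeR) and with Muc2, the main colonic mucin (log2 fold change 4.70, standard error 0.175, adjusted p = 1.35e-13, edgeR). All 7 goblet markers and both deep crypt secretory markers rose in tdTom+ cells, Muc2 (4.70), Spdef (4.37), Reg4 (4.14) and Kit (3.34) among them. Of 8 absorptive markers 7 fell, led by Aqp8 (−5.18) and Car4 (−5.01), and Guca2b rose (1.63). The 8 enteroendocrine markers fell, led by Tph1 (−3.52) and Chga (−3.00). Of 7 tuft markers tested 5 fell, Gfi1b (−1.24) among them. Of 5 stem cell markers 4 fell, led by Ascl2 (−0.76) and Lgr5 (−0.70), and Rgmb rose (0.53). Proliferation genes fell in 7 of 8 cases, Ccnb1 (−0.47) and Top2a (−0.40) the most. These values in brackets are log2 fold changes from edgeR, tdTom+ against tdTom-. Without the mouse in the model the calls of Top2a (adjusted p = 0.0124, edgeR), Mki67 (0.0506), Mcm2 (0.0606) and the tuft marker Avil (0.0122) were lost. The summed absorptive markers lay at 819.6 to 1161 CPM (counts scaled to the library size) in tdTom+ and 6302 to 11905 CPM in tdTom- libraries. In such bulk samples fewer cells of a type and less RNA per cell cannot be told apart. Mitochondrial genes took 2.23 to 6.92% of the counts in tdTom+ and 3.74 to 9.97% in tdTom- libraries, and the part of this difference in the results below was not tested.

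Enough counts for the test were found for 39 of the 63 members. Of these, 18 were higher in tdTom+ cells, 13 were lower and 8 did not pass the threshold, a Benjamini-Hochberg adjusted p of 0.01 over all 15841 genes tested with edgeR and the mouse as a block. The 31 members called were 79.5% of those tested, while 57.2% of all genes tested were called, 28.4% as higher and 28.9% as lower. With a log2 fold change of at least 1 in either direction, 21 members were called (10 higher and 11 lower), which was 53.8% against 16.8% of all genes. The lowest library of one population lay above the highest of the other for 25 members, 64.1% against 30.5% of all genes. The median log2 fold change of the 39 was 0.17, against 0.0032 over all genes tested. The carriers thus spread to both sides, from −4.31 for Slc3a1 to 2.88 for Slc43a1, with no common direction. Of the 31 called, 29 moved the same way in all 8 mice. The exceptions were Slc1a2 and Slc6a12, which were also the called members that lost significance without the mouse in the model. In mice 1 to 3 alone, whose numbers form one series, 15 members were higher and 11 lower, and in mice 5 to 8 alone 20 were higher and 13 lower. Over all genes, mice 1 to 3 alone gave 3315 higher and 3148 lower calls, and mice 5 to 8 alone 3890 and 4019. With all 8 mice these were 4494 and 4574.

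**Figure D1:**
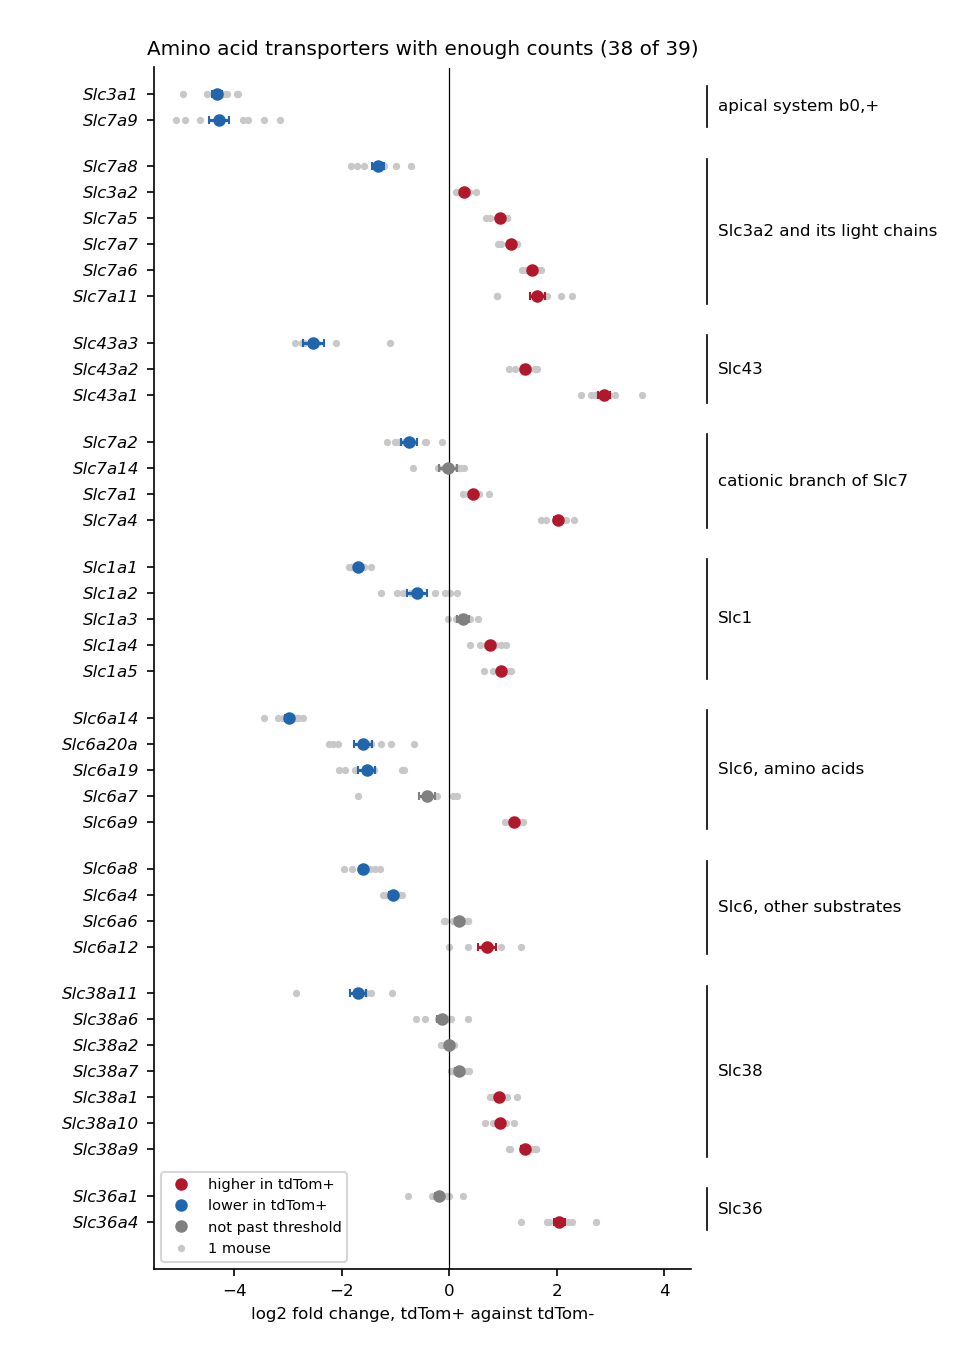
Log2 fold change of 38 of the 39 amino acid transporters tested, tdTom+ against tdTom- (x axis), by gene (y axis) and role group. Large points with bars are edgeR estimates ± standard error, and small points are the within-mouse differences of the 8 mice; the members spread from −4.31 (Slc3a1) to 2.88 (Slc43a1), and within most families some lie on each side of 0.

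Levels are given as RPKM, reads per kilobase of exon divided by the TMM-scaled library size, so that genes can be compared. The summed level of the 63 members was 423 ± 18.4 RPKM (SD, n = 8) in tdTom+ and 521 ± 49.5 RPKM (SD, n = 8) in tdTom- cells. It was lower in tdTom+ cells in 8 of 8 mice, and the populations did not overlap. One gene, Slc6a14, held 34.8% ± 5.52 (SD) of that sum in tdTom- cells and 5.6% ± 1.78 (SD) in tdTom+ cells. Without it the order turned, with 399.5 ± 23.6 RPKM (SD, n = 8) in tdTom+ and 337 ± 14.6 RPKM (SD, n = 8) in tdTom- cells, higher in tdTom+ in 8 of 8 mice although the ranges overlapped. In tdTom- cells the order of mean levels was Slc6a14, Slc6a8, Slc1a5, Slc38a2 and Slc6a6. In tdTom+ cells Slc1a5 came first with 18.5% ± 1.07 (SD) of the sum, against 7.89% ± 1.95 (SD) in tdTom- cells, followed by Slc38a2, Slc6a6 and Slc38a10. The ratio of Slc1a5 to Slc6a14 was 1.94 to 5.77 in tdTom+ and 0.144 to 0.404 in tdTom- libraries. The carrier of highest level therefore differed between the populations in every mouse.

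**Figure D2:**
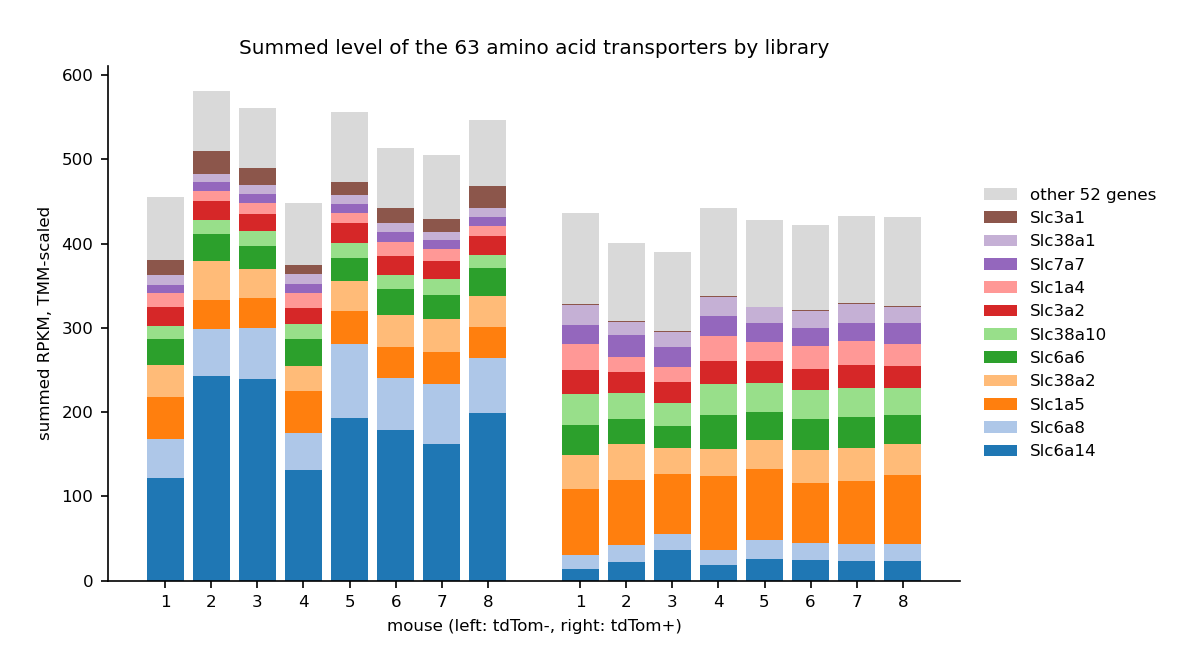
Summed RPKM of the 63 amino acid transporters (y axis) in the 16 libraries (x axis, mice 1 to 8 of each population), stacked by the 11 named genes and the rest. Among the named genes, Slc6a14 forms the largest block in every tdTom- library and Slc1a5 in every tdTom+ library.

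**Figure D3:**
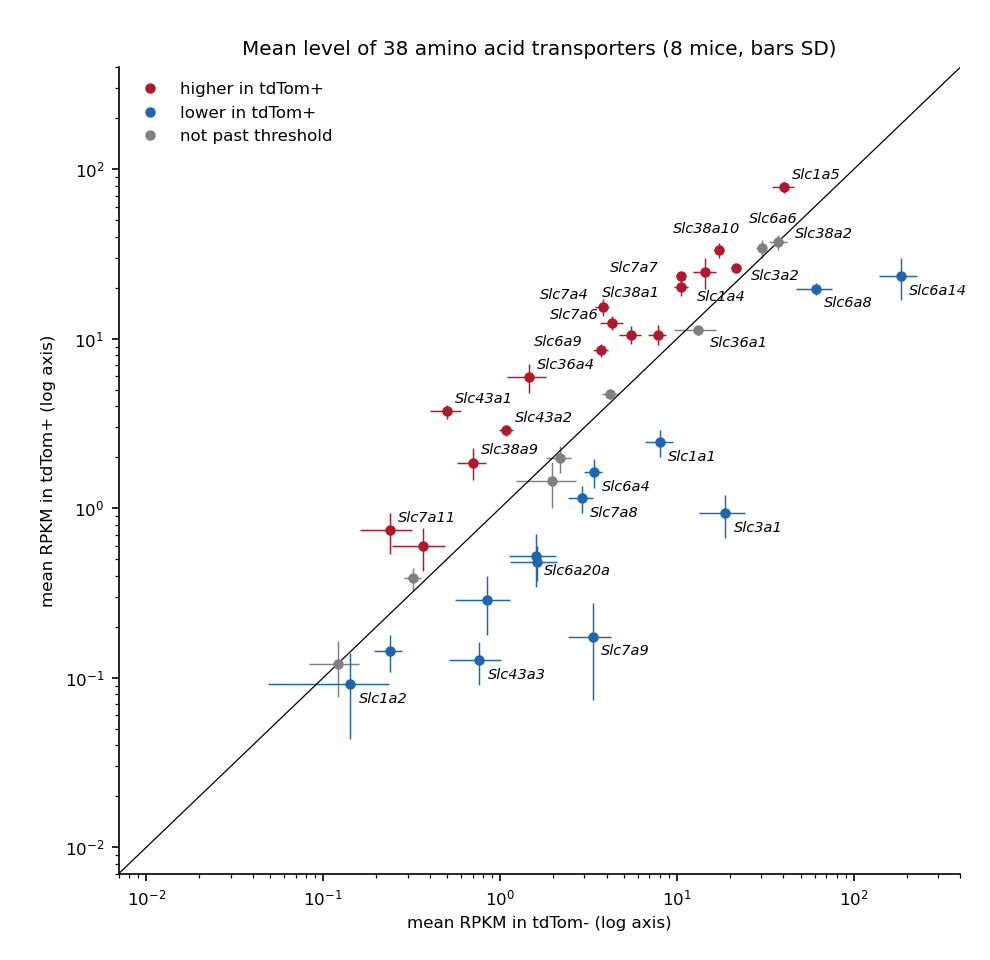
Mean RPKM of 38 of the 39 members tested in tdTom- (x axis) and tdTom+ cells (y axis), both log axes, with SD over 8 mice as bars and a line of equal level. Slc6a14 and Slc6a8 lie below the line among the high genes, and Slc3a1 and Slc7a9 lie farthest below it.

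The apical exchanger of cystine and dibasic amino acids, system b0,+, is made of the heavy chain Slc3a1 (rBAT) and the light chain Slc7a9. Slc3a1 (chr17:85028347-85064243, plus strand; all coordinates of genes are those of the GRCm38 count tables) ran over 11.2 to 27.5 RPKM (median 17.8) in the 8 tdTom- libraries and over 0.60 to 1.36 RPKM (median 0.956) in the 8 tdTom+ libraries. No tdTom+ library came near a tdTom- one, and the gene fell in 8 of 8 mice (log2 fold change −4.31, standard error 0.0949, adjusted p = 2.63e-16, edgeR). Slc7a9 (chr7:35449037-35466036, plus strand) showed 2.26 to 4.85 RPKM (median 3.14) in tdTom- and 0.0387 to 0.338 RPKM (median 0.171) in tdTom+ cells. It was low in all tdTom+ libraries, on 2 to 15 counts each (log2 fold change −4.28, standard error 0.192, adjusted p = 1.54e-12, edgeR). Heavy and light chain thus fell together, and their ratio of RPKM, 0.143 to 0.209 in tdTom- cells, ranged from 0.0355 to 0.522 in tdTom+ cells, where so few reads carry it. Slc7a13, another light chain that pairs with Slc3a1 in the kidney, had 0 counts. Of 8 absorptive markers, 7 moved with this pair and Guca2b rose, and the part of absorptive cells in the difference was not tested.

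The promoter of Slc3a1 is shown because it was the only one among the members that held CAAAGTCCA, a sequence of the kind bound by the enterocyte factor HNF4. RefSeq promoter windows (GRCm38.p6, 250 bases before to 50 after each start) were found for 45 of the 63 members, 66 windows in all, and CAAAGTCCA, on either strand, stood in 0.475% of all 32851 windows. The window chr17:85028097-85028396, plus strand, is printed 5′ to 3′ with the match, which begins at position −39, in capitals.
Slc3a1: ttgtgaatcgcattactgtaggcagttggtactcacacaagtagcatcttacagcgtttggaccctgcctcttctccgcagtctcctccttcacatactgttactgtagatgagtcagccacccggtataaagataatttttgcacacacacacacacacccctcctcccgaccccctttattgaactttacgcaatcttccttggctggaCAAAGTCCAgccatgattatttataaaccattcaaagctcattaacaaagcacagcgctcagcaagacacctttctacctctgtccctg
A search for an HNF1-type motif found it in 0.399% of all windows and in no member window. A match is only a string of letters and does not show binding.

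Among the Slc6 carriers of amino acids, 3 fell, 1 rose and 1 did not pass, of 12 members and 5 tested. Over all genes tested, 57.2% were called. Slc6a14 (chrX:21714896-21742355, plus strand) encodes ATB0,+, which is driven by sodium and chloride and takes up nearly all neutral and cationic amino acids. Its levels were 123 to 243 RPKM (median 186) in tdTom- and 13.5 to 36.2 RPKM (median 23.2) in tdTom+ cells. The populations were far apart, with 7.88-fold less in tdTom+ cells and the same direction in 8 of 8 mice (log2 fold change −2.98, standard error 0.0761, adjusted p = 1.44e-15, edgeR). A small RNA gene, Gm25553, overlaps it on the same strand in the annotation. Slc6a19, the main neutral amino acid carrier of the small intestinal brush border, was far lower, at 0.388 to 1.44 RPKM (median 0.819) in tdTom- and 0.174 to 0.477 RPKM (median 0.266) in tdTom+ cells. The ranges overlapped, but within each mouse it was lower in tdTom+ cells (log2 fold change −1.54, standard error 0.153, adjusted p = 9.47e-08, edgeR). Slc6a20a, which carries proline and other imino acids, lay at 0.91 to 2.4 RPKM (median 1.51) in tdTom- and 0.33 to 0.853 RPKM (median 0.476) in tdTom+ cells. Its ranges were close but separate (log2 fold change −1.61, standard error 0.172, adjusted p = 2.35e-07, edgeR). Its paralog Slc6a20b lies 3557 bases away, and reads that they share could be lost or divided in counting. The member that rose was Slc6a9, the glycine carrier GlyT1, at 7.48 to 9.48 RPKM (median 8.77) in tdTom+ and 3.18 to 4.27 RPKM (median 3.76) in tdTom- cells. It was higher in every tdTom+ library than in any tdTom- library (log2 fold change 1.21, standard error 0.0505, adjusted p = 6.08e-13, edgeR). Slc6a7, a proline carrier known from the brain, did not pass (log2 fold change −0.42, standard error 0.151, adjusted p = 0.0207, edgeR).

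**Figure D4:**
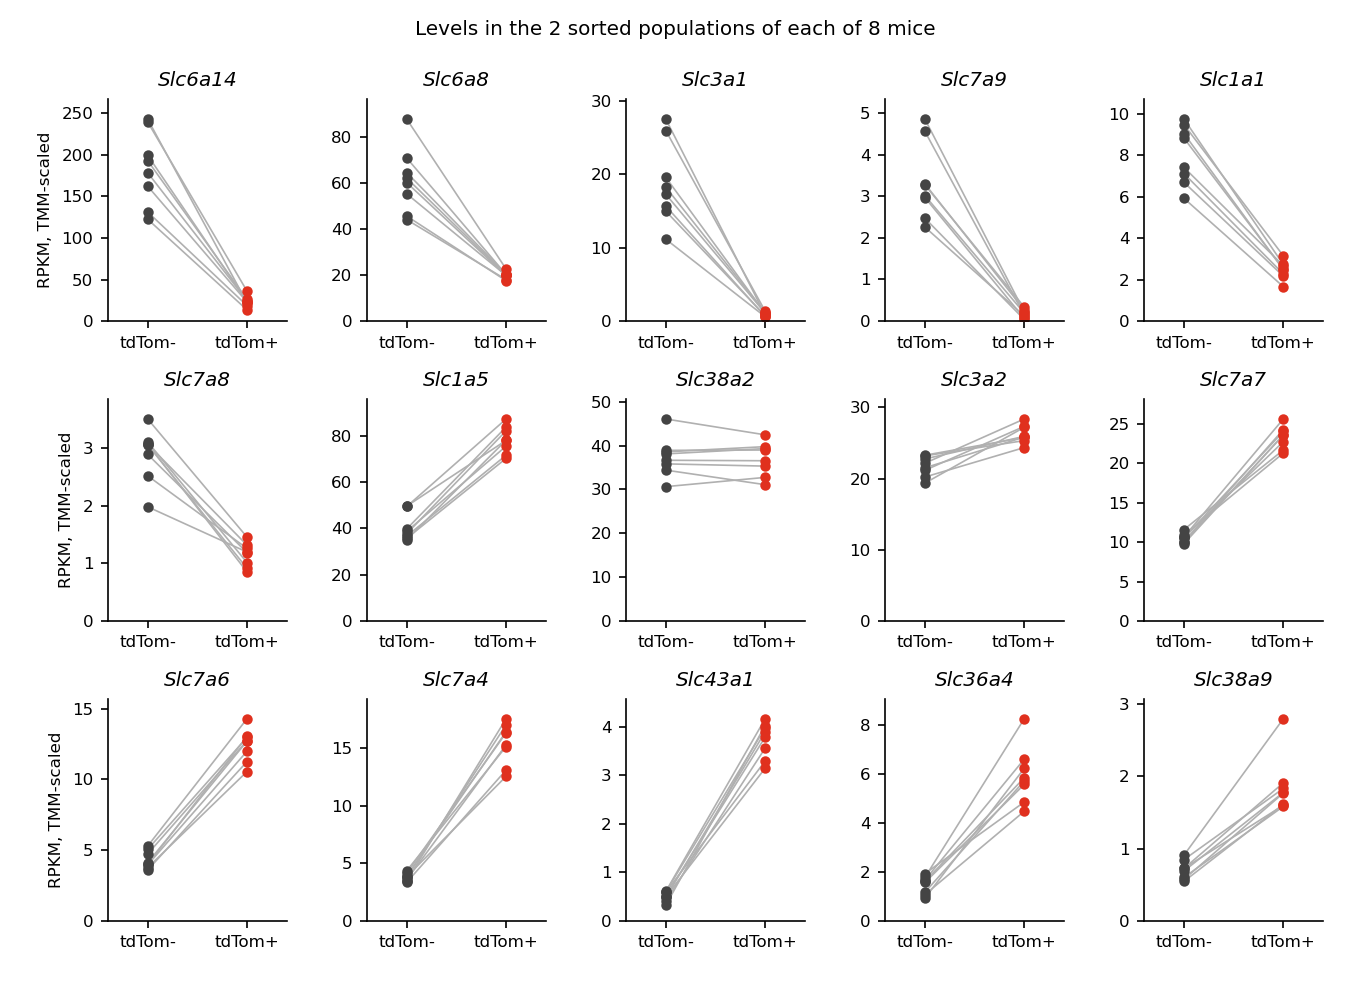
RPKM (y axes, from 0) of 15 members in the tdTom- and tdTom+ cells of each of 8 mice, 1 point a library, with lines joining the populations of a mouse. The lines of Slc6a14, Slc6a8, Slc3a1, Slc7a9, Slc1a1 and Slc7a8 descend in all mice, those of Slc38a2 stay level, and those of the other 8 genes rise in all mice.

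Of the Slc1 family, 2 of 5 tested members rose, 2 fell and 1 did not pass, while 57.2% of all genes were called. The neutral amino acid exchangers rose. Slc1a5 (ASCT2; chr7:16781346-16798274, plus strand), which brings glutamine into cells, was at 70.1 to 87.1 RPKM (median 78) in tdTom+ and 35.1 to 49.5 RPKM (median 38.2) in tdTom- cells. It was the highest member in tdTom+ cells and rose 1.95-fold without overlap (log2 fold change 0.97, standard error 0.057, adjusted p = 7.26e-11, edgeR). Slc1a4 (ASCT1), an exchanger of alanine, serine and cysteine, reached 17.4 to 30.4 RPKM (median 26.6) in tdTom+ and 11.8 to 17.4 RPKM (median 14) in tdTom- cells. Its lowest tdTom+ library and its highest tdTom- library were almost level, while each mouse showed the rise (log2 fold change 0.77, standard error 0.0629, adjusted p = 7.01e-09, edgeR). The glutamate carrier Slc1a1 (EAAC1) went the other way, with 1.66 to 3.16 RPKM (median 2.5) in tdTom+ and 5.92 to 9.75 RPKM (median 8.12) in tdTom- cells. All its tdTom- libraries stood above all its tdTom+ libraries (log2 fold change −1.70, standard error 0.0569, adjusted p = 3.26e-14, edgeR). The glial glutamate carriers were low, Slc1a2 with 14 to 52 counts in tdTom+ and 15 to 211 counts in tdTom- libraries and Slc1a3 with 48 to 75 and 46 to 150 counts. Slc1a2 passed the threshold (log2 fold change −0.60, standard error 0.185, adjusted p = 0.0083, edgeR) but was lower in only 6 of 8 mice, with adjusted p = 0.103 (edgeR) without the mouse in the model. Slc1a3 did not pass (log2 fold change 0.25, standard error 0.111, adjusted p = 0.0562, edgeR).

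The basolateral heavy chain Slc3a2 (4F2hc, CD98; chr19:8706882-8723369, minus strand) rose slightly, while its light chains moved by different amounts and in both directions. Slc3a2 was at 24.3 to 28.4 RPKM (median 25.9) in tdTom+ and 19.4 to 23.3 RPKM (median 21.8) in tdTom- cells. The shift was small but the populations did not overlap (log2 fold change 0.28, standard error 0.0484, adjusted p = 7.37e-05, edgeR). In mice 1 to 3 alone the call was lost (adjusted p = 0.017, edgeR). Its light chains together had 48.2 ± 2.5 RPKM (SD, n = 8) in tdTom+ and 23.4 ± 1.28 RPKM (SD, n = 8) in tdTom- cells. Per RPKM of Slc3a2 this was 1.74 to 1.93 in tdTom+ and 0.982 to 1.28 in tdTom- libraries, so the light chain messages rose more than that of the heavy chain in every mouse.

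Slc7a7 (y+LAT1), which passes cationic amino acids to the blood in exchange for neutral ones, was the most abundant light chain, at 21.3 to 25.6 RPKM (median 23.6) in tdTom+ and 9.81 to 11.6 RPKM (median 10.6) in tdTom- cells. The libraries of each population lay close together and well apart from the other (log2 fold change 1.15, standard error 0.0522, adjusted p = 1.85e-12, edgeR). Slc7a6 (y+LAT2), of the same transport system, had 10.5 to 14.3 RPKM (median 12.7) in tdTom+ and 3.59 to 5.28 RPKM (median 4.04) in tdTom- cells. It rose in 8 of 8 mice without overlap (log2 fold change 1.53, standard error 0.0542, adjusted p = 6.62e-14, edgeR), and its share of the light chain sum went from 18.3 ± 1.98% (SD) in tdTom- to 25.8 ± 1.66% (SD) in tdTom+ cells. Slc7a5 (LAT1), the exchanger of large neutral amino acids found in growing cells, was at 10.5 ± 1.28 RPKM in tdTom+ and 5.48 ± 0.785 RPKM in tdTom- cells (SD, n = 8; log2 fold change 0.95, standard error 0.0576, adjusted p = 1.12e-10, edgeR). Slc7a8 (LAT2), the basolateral exchanger of neutral amino acids of absorbing epithelia, was the one light chain that fell, with 0.85 to 1.46 RPKM (median 1.19) in tdTom+ and 1.98 to 3.5 RPKM (median 3.06) in tdTom- cells. The ranges did not touch (log2 fold change −1.33, standard error 0.111, adjusted p = 9.73e-09, edgeR), and its share of the light chain sum was 2.37 ± 0.344% (SD) in tdTom+ and 12.4 ± 2.21% (SD) in tdTom- cells. Slc7a11 (xCT), which imports cystine for glutathione in exchange for glutamate, lay at 0.541 to 1.18 RPKM (median 0.701) in tdTom+ and 0.152 to 0.381 RPKM (median 0.226) in tdTom- cells. It was low in both but higher in every tdTom+ library (log2 fold change 1.64, standard error 0.144, adjusted p = 1.75e-08, edgeR). The annotation places Gm37498 and Gm37692 over Slc7a11 on its own strand. Slc7a10 and Slc7a12 had 0 counts.

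Among the 39 tested members, the largest rise was in the Slc43 family. Slc43a1 (LAT3; chr2:84838850-84863594, plus strand), which lets large neutral amino acids such as leucine pass without exchange, was at 3.14 to 4.16 RPKM (median 3.84) in tdTom+ and 0.321 to 0.604 RPKM (median 0.50) in tdTom- cells. Its lowest tdTom+ library was several times its highest tdTom- library (log2 fold change 2.88, standard error 0.103, adjusted p = 7.67e-14, edgeR). Slc43a2 (LAT4), with the same kind of transport, had 2.65 to 3.1 RPKM (median 2.87) in tdTom+ and 0.983 to 1.23 RPKM (median 1.05) in tdTom- cells. Replicates were tight and separate (log2 fold change 1.41, standard error 0.0653, adjusted p = 2.50e-12, edgeR); the microRNA gene Mir3971 overlaps it on the same strand. Slc43a3 (chr2:84936579-84958509, plus strand), which carries purine nucleobases rather than amino acids, lies 72985 bases from Slc43a1 and fell, from 0.37 to 1.06 RPKM (median 0.763) in tdTom- to 0.0725 to 0.172 RPKM (median 0.14) in tdTom+ cells. Every tdTom+ library was below every tdTom- library, on 5 to 16 counts each (log2 fold change −2.53, standard error 0.194, adjusted p = 2.87e-09, edgeR). Slc43a3 is known from endothelial cells, and Pecam1, an endothelial marker, fell too (log2 fold change −1.57, standard error 0.163, adjusted p = 1.59e-07, edgeR). Of 8 stromal and endothelial markers 3 were tested, of which Pecam1 and Acta2 (−0.41, edgeR) fell. The call of Acta2 was lost in mice 1 to 3 alone (adjusted p = 0.163, edgeR), in mice 5 to 8 alone (0.0211) and without mouse 3, 5, 7 or 8 (0.0108 to 0.0179). Their summed level was 7.47 to 15.5 CPM in tdTom+ and 11.9 to 24.4 CPM in tdTom- libraries, with Col1a2, Col3a1, Kdr and Pdgfra at 22 counts or fewer in all libraries together. Of 8 immune markers 4 were tested and 3 fell, Lyz2 (−1.91) and Ptprc (−1.49) the most, with sums of 6.97 to 13.4 CPM in tdTom+ and 11.4 to 36.6 CPM in tdTom- libraries. Without the mouse in the model the call of Lyz2 was lost (adjusted p = 0.0108, edgeR). The sort took EpCAM+ cells, and how far it left out endothelial and immune cells was not examined. The part of such cells in the fall of Slc43a3 was not tested.

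In the cationic branch of Slc7, 2 of 4 tested members rose, 1 fell and 1 did not pass, while 57.2% of all genes were called. Slc7a4 (chr16:17572018-17576998, minus strand), a member with no settled substrate, was by level the main one in tdTom+ cells, at 12.5 to 17.6 RPKM (median 15.8), against 3.34 to 4.35 RPKM (median 3.81) in tdTom- cells. All tdTom+ libraries stood well above all tdTom- libraries (log2 fold change 2.02, standard error 0.0642, adjusted p = 1.78e-14, edgeR). Slc7a1 (CAT-1), the general carrier of arginine, lysine and ornithine, had 10.6 ± 1.43 RPKM in tdTom+ and 7.77 ± 0.907 RPKM in tdTom- cells (SD, n = 8). It rose in each mouse although the ranges overlapped (log2 fold change 0.44, standard error 0.0524, adjusted p = 9.44e-07, edgeR). Slc7a2 (CAT-2), a carrier of the same substrates, was low, at 17 to 32 counts in tdTom+ and 30 to 110 counts in tdTom- libraries, and fell (log2 fold change −0.75, standard error 0.156, adjusted p = 3.96e-04, edgeR), with overlapping ranges. Slc7a14, a lysosomal member, did not pass (log2 fold change −0.02, standard error 0.167, adjusted p = 0.937, edgeR).

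The Slc6 carriers of other substrates split evenly, with 2 higher, 2 lower and 1 not past the threshold of 5 tested. Over all genes tested, 28.4% were higher and 28.9% lower. Slc6a8 (chrX:73673150-73682502, plus strand) takes up creatine, and had 44 to 87.5 RPKM (median 61) in tdTom- and 17.5 to 22.6 RPKM (median 19.9) in tdTom+ cells. The tdTom+ libraries lay close together at a level well under the lowest tdTom- library (log2 fold change −1.60, standard error 0.0666, adjusted p = 5.90e-13, edgeR). Slc6a4, the serotonin carrier SERT, which epithelial cells of the gut use to clear serotonin, was at 2.63 to 3.92 RPKM (median 3.4) in tdTom- and 1.11 to 2.05 RPKM (median 1.61) in tdTom+ cells. The ranges did not touch and all mice agreed (log2 fold change −1.06, standard error 0.0712, adjusted p = 4.70e-10, edgeR). The summed enteroendocrine markers moved the same way, at 319 to 805 CPM in tdTom+ and 1416 to 4132 CPM in tdTom- libraries. So did 7 of 8 absorptive markers, while Guca2b rose. The part of these cell types in the fall of Slc6a4 was not tested. Slc6a6 (TauT), the taurine carrier, was high in both populations, at 26.7 to 39.8 RPKM (median 35.4) in tdTom+ and 27.2 to 32.9 RPKM (median 30.5) in tdTom- cells. The ranges overlapped and the difference did not pass (log2 fold change 0.17, standard error 0.0585, adjusted p = 0.0145, edgeR). Slc6a12, the betaine carrier BGT1, rose in 7 of 8 mice (log2 fold change 0.69, standard error 0.168, adjusted p = 0.00151, edgeR), with adjusted p = 0.0122 (edgeR) without the mouse in the model.

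Of 11 Slc38 members, which mainly carry glutamine and small neutral amino acids, 7 were tested, 3 rose, 1 fell and 3 did not pass. This is near the 57.2% called among all genes. Slc38a2 (SNAT2), which many cells induce when amino acids are scarce, was among the highest members and of those tested the one with the smallest change, at 31.1 to 42.4 RPKM (median 37.7) in tdTom+ and 30.6 to 46 RPKM (median 37.4) in tdTom- cells. It was higher in 4 mice and lower in 4 (log2 fold change −0.01, standard error 0.0447, adjusted p = 0.819, edgeR). Its chromosomal neighbour Slc38a1 (SNAT1), 44481 bases away, rose to 16.1 to 22.8 RPKM (median 20) in tdTom+ from 9.15 to 11.8 RPKM (median 10.8) in tdTom- cells. All its tdTom+ libraries were higher (log2 fold change 0.93, standard error 0.0559, adjusted p = 9.63e-11, edgeR). Slc38a10, whose substrates are little studied, had 27.5 to 37.6 RPKM (median 34.2) in tdTom+ and 15.8 to 18.9 RPKM (median 17.3) in tdTom- cells. The populations were again separate (log2 fold change 0.95, standard error 0.056, adjusted p = 7.12e-11, edgeR). Slc38a9, the lysosomal carrier that senses arginine for mTORC1, lay at 1.58 to 2.8 RPKM (median 1.77) in tdTom+ and 0.546 to 0.909 RPKM (median 0.707) in tdTom- cells. It was higher in every tdTom+ library, with that of mouse 7 above the rest (log2 fold change 1.41, standard error 0.0789, adjusted p = 3.58e-11, edgeR). Slc38a11 was the member that fell, with 0.828 to 2.44 RPKM (median 1.53) in tdTom- and 0.318 to 0.691 RPKM (median 0.50) in tdTom+ cells. It was low in both populations but without overlap (log2 fold change −1.70, standard error 0.147, adjusted p = 1.41e-08, edgeR). Slc38a7, the lysosomal exporter of glutamine and asparagine, did not pass (log2 fold change 0.17, standard error 0.0599, adjusted p = 0.0179, edgeR), nor did Slc38a6 (log2 fold change −0.14, standard error 0.0878, adjusted p = 0.156, edgeR).

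Of the proton-coupled Slc36 carriers, Slc36a4 (PAT4), which carries proline and tryptophan, rose and Slc36a1 (PAT1), found at apical and lysosomal membranes, did not pass. Slc36a4 (chr9:15709738-15742384, plus strand) was at 4.47 to 8.24 RPKM (median 5.77) in tdTom+ and 0.922 to 1.92 RPKM (median 1.58) in tdTom- cells. Every tdTom+ library was at more than 2 times the level of any tdTom- library (log2 fold change 2.05, standard error 0.111, adjusted p = 2.18e-11, edgeR). Slc36a1 had 10.3 to 12.3 RPKM (median 11.2) in tdTom+ and 10.1 to 20.9 RPKM (median 12.9) in tdTom- cells. The ranges overlapped, and 7 of 8 mice were lower in tdTom+ cells (log2 fold change −0.19, standard error 0.0792, adjusted p = 0.0407, edgeR).

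The test could not reach 24 members, of which 6 had 0 counts in all 16 libraries (Slc7a12, Slc7a13, Slc6a11, Slc7a10, Slc6a16 and Slc36a3) and 18 had 1 to 198 counts in all. Of the 18, Slc38a5 (SNAT5), a glutamine carrier of the system N type, had 4 to 33 counts in the tdTom+ and 0 to 5 counts in the tdTom- libraries. It was higher in 8 of 8 mice. A fit with no filter on low counts gave 3.35 ± 0.405 (log2 fold change ± standard error, adjusted p = 9.03e-16, edgeR) and called 36.3% of the genes with a count. Its spread differed from that of the main fit, with a standard error of 0.066 against 0.175 for Muc2 and 0.0567 against 0.0447 for Slc38a2. For Slc36a4 its adjusted p was 4.57e-162 against 2.18e-11 (edgeR in both). The p-values of the fit with no filter are therefore not comparable with those of the main fit. In that fit Slc6a20b (−1.55, adjusted p = 1.47e-06, edgeR) and Slc38a4 (−1.32, adjusted p = 2.29e-04, edgeR) were lower in tdTom+ cells. Slc7a15 had 0 counts in every tdTom+ library and 1 to 3 counts in each tdTom- library, which is at the floor of 3 counts, so no fold is given (adjusted p = 0.00813 in the same fit, edgeR). The others were Slc36a2 (183 counts in all), Slc6a18 (127), Slc7a3 (43), Slc6a3 (35), Slc1a7 (34), Slc6a13 (33), Slc6a5 (19), Slc6a17, Slc6a2 (17 each), Slc38a3 (16), Slc38a8, Slc6a21 (8 each), Slc1a6 (6) and Slc6a15 (1). None of these 14 passed the threshold in the fit with no filter. Slc36a2 had a log2 fold change of −0.28 there (standard error 0.296) and Slc6a18 at 0.40 (standard error 0.377), and the other 12 had at most 43 counts each in all libraries together. Among the tested members, 35 reached the filter level of 0.517 CPM in all libraries of both populations. Slc7a9 did so in 4 and Slc43a3 in 5 of the 8 tdTom+ libraries and Slc6a12 in 7 of the 8 tdTom- libraries, so these passed the filter through the population in which they were higher.

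Members that lie next to each other did not always move together. Slc43a1 and Slc43a3 moved in opposite directions at 72985 bases apart, and Slc38a1 rose beside the level Slc38a2. Slc7a9 fell while its neighbour Slc7a10, 244139 bases away, had 0 counts. Slc6a12, 5343 bases from Slc6a13, rose, and Slc6a19, 1722 bases from Slc6a18, fell, while both neighbours had too few counts for the test. Slc6a20a and Slc6a20b both had lower counts in tdTom+ cells. These pairs were among 12 pairs of members within 300000 bases of each other.

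A further motif search covered the string TGATGNAA, which the amino acid response factor ATF4 binds together with a C/EBP partner. It stood on either strand in 3.97% of all windows and in 5 of the 66 member windows (7.58%), those of 4 of the 45 members matched, Slc1a4, Slc7a7, Slc7a11 and Slc6a21. Of these, the first 3 rose and Slc6a21 had 8 counts. The windows of Slc7a11 (chr3:50443564-50443863, minus strand) and Slc1a4 (chr11:20332664-20332963, minus strand) are shown because both genes are known targets of ATF4, with the matches in capitals and 5′ to 3′ on the strand of the gene.
Slc7a11: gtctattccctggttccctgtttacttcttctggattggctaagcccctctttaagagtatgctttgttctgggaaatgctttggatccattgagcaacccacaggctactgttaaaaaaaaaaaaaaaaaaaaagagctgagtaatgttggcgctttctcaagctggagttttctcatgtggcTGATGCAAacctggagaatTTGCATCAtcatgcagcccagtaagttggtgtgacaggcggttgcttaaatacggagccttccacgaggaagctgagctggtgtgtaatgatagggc
Slc1a4: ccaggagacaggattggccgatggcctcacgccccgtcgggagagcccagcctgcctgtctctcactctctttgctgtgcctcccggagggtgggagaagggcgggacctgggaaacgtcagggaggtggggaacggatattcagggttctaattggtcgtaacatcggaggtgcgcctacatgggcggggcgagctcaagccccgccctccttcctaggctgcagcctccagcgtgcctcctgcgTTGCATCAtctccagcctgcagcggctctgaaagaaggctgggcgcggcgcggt
The Slc7a11 window holds 2 matches, the first at position −66, and the Slc1a4 window holds 1 at position −4. The E-box CAGCTG, of the kind Atoh1 binds, was in 16.3% of all windows and in 13 of the 66 member windows (19.7%), those of 12 members, of which Slc6a12, Slc7a1 and Slc7a7 rose and Slc1a2, Slc6a4 and Slc7a9 fell. TGACGTCA, the cyclic AMP response element, was in 1.79% of all windows and among the members in that of Slc38a6 alone.

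The other genes that handle amino acids were read from 9 lists. Of 8 tested carriers of amino acids and peptides outside the 7 families, 4 fell and none rose, against 57.2% of all genes called in either direction. Slc15a1 (PEPT1), the apical peptide carrier, fell from 10.7 to 38.7 RPKM (median 24) in tdTom- to 0.523 to 2.17 RPKM (median 1.36) in tdTom+ cells (log2 fold change −4.15, standard error 0.0821, adjusted p = 1.14e-16, edgeR). Slc17a8, a vesicular glutamate carrier, fell by 2.02 on the log2 scale and Slc16a10 (TAT1), the basolateral carrier of aromatic amino acids, by 0.63. Among the partners of brush border carriers, Anpep, the aminopeptidase N that binds Slc6a19, rose from 2.56 ± 0.843 RPKM to 9.27 ± 1.37 RPKM (SD, n = 8; log2 fold change 1.89, standard error 0.104, adjusted p = 2.82e-11, edgeR). Cltrn (collectrin) had 11 counts in all and was not tested.

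Of 23 genes by which mTORC1 senses amino acids, 13 rose and 3 fell, against 28.4% of all genes called higher and 28.9% lower. Most of these changes were small (median log2 fold change 0.20). The arginine sensor Castor1 rose (log2 fold change 1.67, standard error 0.173, adjusted p = 1.60e-07, edgeR), and its paralog Castor2 fell (log2 fold change −1.77, standard error 0.156, adjusted p = 1.86e-08, edgeR). Flcn, which acts on the Rag GTPases at the lysosome, rose (0.79), and Rragd, one of these GTPases, fell (−0.90, edgeR). Rragd had 6 to 21 counts in the tdTom+ libraries, and its call was lost in mice 1 to 3 alone (adjusted p = 0.237, edgeR). The call of Lamtor2 (0.16), among the 13 that rose, was lost without the mouse in the model (adjusted p = 0.0173, edgeR). Mtor itself was at 5.84 ± 0.56 RPKM in tdTom+ and 6.02 ± 0.396 RPKM in tdTom- cells (SD, n = 8) and did not pass.

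Of 19 tested genes of ATF4 and the integrated stress response, 9 rose and 5 fell, while 57.2% of all genes were called. Atf4 was at 148 to 196 RPKM (median 169.8) in tdTom+ and 78.7 to 118 RPKM (median 94.2) in tdTom- cells, without overlap (log2 fold change 0.86, standard error 0.0476, adjusted p = 2.92e-11, edgeR). Asns, asparagine synthetase, rose to 26.1 to 40.5 RPKM (median 34.3) from 8.51 to 14.9 RPKM (median 10.7) (log2 fold change 1.62, standard error 0.0602, adjusted p = 1.31e-13, edgeR). Nupr1, a stress-induced nuclear protein, rose the most (log2 fold change 3.51, standard error 0.108, adjusted p = 1.18e-14, edgeR), followed by Eif2ak3 (PERK), the kinase of the unfolded protein response (1.81). Those that fell were Cth (−1.16), which makes cysteine, Atf3 (−0.45), Shmt2 (−0.39), Ddit3 (−0.36) and Phgdh (−0.28). For Atf3 the call was lost without the mouse in the model (adjusted p = 0.116, edgeR), as it was for Ddit3 (0.098) and Phgdh (0.115).

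In glutamine and glutamate metabolism 3 of 9 tested genes rose and 5 fell, while 57.2% of all genes were called. The alanine aminotransferases went opposite ways, Gpt2 up (1.5) and Gpt down (log2 fold change −2.53, standard error 0.0728, adjusted p = 5.55e-15, edgeR). The glutaminase Gls2 fell (−0.74), with adjusted p = 0.0311 (edgeR) without the mouse in the model. Glul, glutamine synthetase, was at 198 ± 12.9 RPKM in tdTom+ and 168 ± 20.3 RPKM in tdTom- cells (SD, n = 8; log2 fold change 0.24, standard error 0.0666, adjusted p = 0.00417, edgeR), and this call was also lost without the mouse (adjusted p = 0.0106, edgeR).

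Among 14 genes of arginine, ornithine and proline metabolism 7 rose and 6 fell, while 57.2% of all genes were called. Pycr1, which makes proline, rose from 1.02 ± 0.258 RPKM to 11.7 ± 1.73 RPKM (SD, n = 8; log2 fold change 3.53, standard error 0.084, adjusted p = 6.40e-16, edgeR). The arginases moved apart, Arg1 up (2.05, on overlapping ranges) and Arg2 down (log2 fold change −3.86, standard error 0.12, adjusted p = 1.44e-14, edgeR). Nags, which starts the urea cycle, fell (−2.33). Odc1, the first enzyme of polyamine synthesis, rose slightly (log2 fold change 0.16, standard error 0.0458, adjusted p = 0.00456, edgeR) and not past the threshold without the mouse in the model (adjusted p = 0.0567, edgeR). Among the 6 that fell, the call of Prodh (−0.21) was lost without the mouse (adjusted p = 0.0268, edgeR) and with no filter (0.0262).

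Of 8 tested genes on the list of branched-chain amino acid breakdown 4 rose and none fell, while 57.2% of all genes were called. The largest rises were those of the aminotransferase Bcat2 (log2 fold change 1.09, standard error 0.0543, adjusted p = 6.78e-12, edgeR) and of Bckdk (0.43), the kinase that inhibits the branched-chain ketoacid dehydrogenase. The dehydrogenase genes Bckdha (0.07), Bckdhb (0.20) and Dbt (−0.08) did not pass. From cystine to glutathione, 6 of 9 genes fell and 2 rose, against 57.2% of all genes called, while Slc7a11, the cystine importer, rose. Ggt1, the ectoenzyme that splits glutathione, fell the most of the pathway genes (log2 fold change −5.34, standard error 0.115, adjusted p = 2.04e-16, edgeR), and Gss, glutathione synthetase, fell too (−1.38). The 2 that rose were Chac1, which breaks glutathione down inside cells (1.79), and Cbs, which feeds cysteine synthesis (1.22). For the substrates of the other Slc6 carriers, 7 of 9 genes of creatine, taurine and serotonin metabolism fell and 1 rose. Over all genes tested, 28.9% were called lower and 28.4% higher. Ckb, brain-type creatine kinase, fell (log2 fold change −2.0, standard error 0.0783, adjusted p = 2.53e-13, edgeR) as Slc6a8 did, and so did Maoa, which degrades serotonin (−2.47), and Tph1, which makes it in enterochromaffin cells (log2 fold change −3.52, standard error 0.118, adjusted p = 3.35e-14, edgeR). Cdo1, which leads from cysteine to taurine, rose (0.36). Tph1 is also among the enteroendocrine markers.

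**Figure D5:**
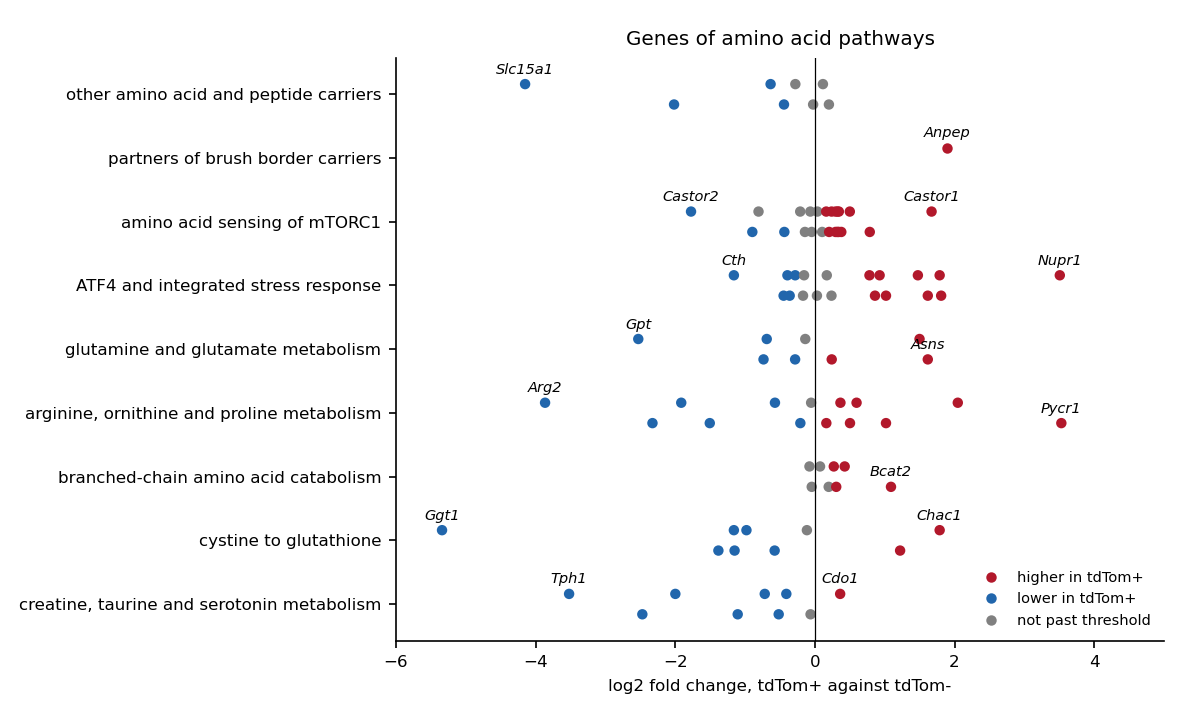
Log2 fold change, tdTom+ against tdTom- (x axis), of the tested genes of 9 amino acid pathway lists (y axis), 1 point a gene, with the lowest and highest gene of each list named where it was called. Genes not reported by name are not drawn. Called genes lie on both sides of 0 in 6 lists, no gene of the first list was called higher and none of the branched-chain list lower. Over all genes tested, 28.4% were called higher and 28.9% lower.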

How the data were processed

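RNA sequencing counts of 16 libraries were used, tdTom+ and tdTom- cells of 8 mice. TopHat2 2.1.1 had placed the single-end, strand-specific mRNA reads on GRCm38, and the authors deposited raw counts per gene, made on exons from primary reverse-strand alignments with featureCounts (1.5.0-p1 per the file headers, Subread 1.5.2 and DESeq2 1.14.1 in the submitters' processing notes). Libraries were grouped and paired by their labels. Symbols came from GENCODE M21 for 44585 of 45513 genes. The counts were fitted in R 4.3.3 by edgeR 4.0.16, with its low-count filter filterByExpr, TMM scaling, the quasi-likelihood functions glmQLFit and glmQLFTest, and the mouse as a replicate block. Calls used a Benjamini-Hochberg adjusted p of 0.01 over all genes tested. RPKM used TMM-scaled library sizes and the exon length in the count tables, and log2 CPM a prior count of 2.

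The numbers pair the samples, since both libraries of a number came from 1 animal. Deviations from the population means correlated within a mouse at 0.223 to 0.408, and at most at 0.168 between mice. On simulated counts with 200 genes changed, the fit recovered 58 of 67 genes at a log2 change of 0.5, 67 of 67 at 1 and 66 of 66 at 2, with 2 false calls among 15739 genes. The changed genes left out those of lowest level, so recovery of members with few counts was not examined. They were also a far smaller share than the 57.2% of genes called in the data. No 2 libraries of a population agreed within sampling noise. A floor of 3 counts was 0.124 to 0.182 CPM in tdTom+ and 0.0655 to 0.164 CPM in tdTom- libraries, which covers counting error only. The members, role groups and gene lists were chosen with earlier results of these data known. Members called with a log2 fold change of at least 1, or among the 10 highest by level in either population, are described by library. Of each list the 2 largest called changes in each direction are named, besides a fixed set of genes. A few genes that these rules would name, 1 tested member among them, are included in counts, sums and medians but not reported here by name. Alternatives were the model without the mouse, DESeq2 1.42.0, limma-voom (limma 3.58.1), other normalizations and filters, an adjusted p of 0.05, each mouse left out, and mice 1 to 3 or 5 to 8 alone.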

Additional observations from a re-analysis of the deposited data

Results flagged for a closer look

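Of 80 groups of 8 values examined for a library far from the others (the 39 members tested and the total counts, in each population), 2 held one, and chance gives about 4. Slc38a9, the lysosomal arginine sensor, was at a log2 CPM of 4.65 in the tdTom+ library of mouse 7, against 3.83 to 4.10 in the other 7. The tdTom- library of mouse 4 had 45791503 counts in all, against at most 20668605 in the other tdTom- libraries.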

How the results depend on the processing

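Under the alternatives, 661 of 698 values of the 39 members kept direction and side of the threshold, 14 gained significance, 15 lost it and 8 changed sign, and 28 members were the same under all. The sign changes were those of members near 0. Slc38a2 was at 0.0068 on the log2 scale in mice 5 to 8 alone and at −0.0156 to 0.0107 with 1 mouse left out, and Slc7a14 at 0.000365 without the replicate block, at 0.0815 in mice 1 to 3 alone and at −0.0641 to 0.0777 with 1 mouse left out. Slc1a2 lost its call in 9 alternatives, among them without mouse 1, 2, 4, 7 or 8 (adjusted p up to 0.0348, edgeR), and Slc6a12 without the block and within either series of mice. Slc36a1 passed without mouse 4 (adjusted p = 0.00534, edgeR) and Slc6a6 without mouse 2 (0.00240) or 3 (0.00607).

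The model without the replicate block called 17 members higher and 12 lower, and 4032 and 4042 genes in all, against 4494 and 4574 with it. With 1 mouse left out, 17 to 20 members were higher and 12 to 13 lower. In the role groups, lower calls in Slc1 numbered 1 without the block, with DESeq2 and within either series of mice, and 1 to 2 with 1 mouse left out, and the Slc6 carriers of other substrates had 1 higher call without the block and with at least 10 counts in every sample, 0 in mice 1 to 3 and 1 to 2 with 1 mouse left out. Lower Slc36 calls were 1 by library size only, with no filter, at an adjusted p of 0.05 and in mice 5 to 8, and 0 to 1 with 1 mouse left out. With no filter, lower calls were 2 in Slc38, 5 in the Slc6 carriers of amino acids and 2 in the cationic branch as grouped here. One of those 2 was Slc7a15, which had 0 counts in the tdTom+ and 1 to 3 counts in the tdTom- libraries. With 10 counts in every sample, lower calls were 1 in system b0,+ and 0 in Slc43, since fewer genes were tested. Higher Slc38 calls were 5 in mice 5 to 8, and lower cationic calls 0 in mice 1 to 3. The cause of these shifts was otherwise not tested. Members under about 20 counts in a library are limited by depth.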
